A study of Mus musculus with 18 samples.

Results

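Dkk3, Dusp14, Ppp1r1a and Serpinb1a are 4 of the 46725 mouse genes in the count files. They were picked because their change in HSA-LR mice against WT mice differed between the gastrocnemius and the quadriceps, with the libraries of a mouse paired by replicate number. The values that chose them are therefore given as a description. A test is given only for the treated gastrocnemius against the treated quadriceps, a contrast that did not choose the genes, and it is given with the spread estimated over all libraries, those behind the choice included, and over the treated libraries alone. The groups were WT mice, HSA-LR mice left untreated, and HSA-LR mice that received Pip6a-PMO, with 3 mice in each group and 2 muscles from each mouse, 18 libraries in all. All mice were 20 weeks of age and of FVB background. HSA-LR mice, a model of myotonic dystrophy type 1, carry a human skeletal actin transgene with CTG repeats in its noncoding end, driven by the actin promoter in skeletal muscle, so the repeat RNA is made in muscle fibers and not in the other cells of the tissue. Pip6a-PMO is an arginine-rich cell-penetrating peptide joined to a morpholino antisense oligomer against the CUG repeats. It was injected intravenously, and the sources used here give doses for other experiments of the study without tying one to the sequenced mice. The labels give an injected volume of 160 µL for every mouse, those of the WT and untreated HSA-LR groups included.

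In myotonic dystrophy, RNA with expanded CUG repeats stays in the nucleus and sequesters MBNL splicing factors, and fibers with too little free MBNL return to splicing and expression patterns of an earlier stage. The gastrocnemius and the quadriceps are both mixed, mostly fast muscles, but the gastrocnemius holds more slow fibers. The 4 genes belong to different pathways. Dkk3 encodes a secreted glycoprotein related to the Dickkopf inhibitors of Wnt signaling. Dusp14 encodes a dual-specificity phosphatase that acts on MAP kinases and on the TAK1 complex. Ppp1r1a encodes inhibitor 1 of protein phosphatase 1, which becomes an inhibitor once protein kinase A has phosphorylated it. Serpinb1a encodes an intracellular serpin that inhibits neutrophil serine proteases.

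All 4 genes lie on the minus strand of GRCm38 (GENCODE M21). Dkk3 (ENSMUSG00000030772.6) spans chr7:112116017-112159057, Dusp14 (ENSMUSG00000018648.15) chr11:84048041-84069261, Ppp1r1a (ENSMUSG00000022490.6) chr15:103530279-103538003 and Serpinb1a (ENSMUSG00000044734.15) chr13:32842092-32851185. Since the oligomer is directed against CUG repeats, the annotated transcripts were searched for uninterrupted CTG on the sense strand. The longest run was 3 triplets in Ppp1r1a, 2 in Dkk3 and 2 in Serpinb1a, and Dusp14 held no triplets in a row. Of 16135 tested genes with a transcript in the annotation, 17.97% held at least 3 triplets in a row and 0.310% at least 7. The runs are shown 5′ to 3′ with the triplets in capitals and the flanking bases in lower case. That of Ppp1r1a lies outside the coding sequence (chr15:103530315-103530341), and those of Dkk3 (chr7:112158348-112158371) and Serpinb1a (chr13:32845339-32845362) lie within it.
Ppp1r1a: gccaggcttCTGCTGCTGattctgatt
Dkk3: ctgtgtacaCTGCTGgcggcggcg
Serpinb1a: atggtcattCTGCTGcctaaagac

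The libraries held 98916844 to 143135976 counts each. The fiber genes Ckm, Acta1 and Myh4 were detected in every library, and the summed level of 9 skeletal fiber genes was between 138144 and 239189 CPM (counts scaled by library size with edgeR's TMM factors). WT mouse 2 is labelled female and WT mouse 3 male, but the summed level of Eif2s3y, Ddx3y, Uty and Kdm5d, which lie on the Y chromosome, was 153.4 and 188.1 CPM in the gastrocnemius and quadriceps of WT mouse 2 against 1.14 and 1.43 CPM in those of WT mouse 3. Both muscles with the same number agreed in this level. The libraries of all other mice, those of the untreated HSA-LR and treated groups included, held 134.0 to 188.1 CPM. WT mouse 3 was thus the only mouse with such a low level, and it differed in this from every untreated HSA-LR and treated mouse. WT mouse 3 also stood apart in 3 of the 4 genes, so values are given with and without it where it mattered. Whether its sex or anything else about it was connected with these levels was not tested.

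Of the 4 genes, Dkk3 had the largest fall in HSA-LR mice, and the fall was deeper in the quadriceps. In WT mice its level was 22.2, 26.1 and 5.59 CPM in the gastrocnemius of mice 1, 2 and 3 and 52.7, 60.7 and 12.6 CPM in their quadriceps. HSA-LR mice had 2.80, 3.08 and 2.91 CPM in the gastrocnemius and 2.20, 2.34 and 2.57 CPM in the quadriceps. Thus every WT mouse had more Dkk3 in the quadriceps than in the gastrocnemius, whereas every HSA-LR mouse had slightly more in the gastrocnemius, and all HSA-LR libraries lay below all WT libraries in both muscles. The mean was 6.13-fold lower than in WT mice in the gastrocnemius and 17.7-fold lower in the quadriceps. WT mouse 3 was the lowest WT mouse, and without it these values were 8.24-fold and 24.0-fold. The fitted log2 FC was -2.63 (SE 0.46) in the gastrocnemius and -4.14 (SE 0.51) in the quadriceps. In treated mice Dkk3 was 2.44, 2.01 and 1.79 CPM in the gastrocnemius and 2.34, 1.89 and 2.42 CPM in the quadriceps, still below every WT library. The treated gastrocnemius lay below all untreated HSA-LR gastrocnemius libraries, and the quadriceps overlapped.

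Dusp14 was lower in the gastrocnemius of HSA-LR mice than in that of WT mice and slightly higher in their quadriceps. WT mice had 8.68, 8.13 and 10.3 CPM in the gastrocnemius and 4.93, 5.27 and 5.87 CPM in the quadriceps. HSA-LR mice had 5.47, 4.78 and 5.23 CPM in the gastrocnemius, all below WT, and 6.86, 5.92 and 6.93 CPM in the quadriceps, all above WT. The level that separates the WT muscles was thereby turned around, with less Dusp14 in the gastrocnemius than in the quadriceps of each HSA-LR mouse. The log2 FC against WT was -0.82 (SE 0.14) in the gastrocnemius and 0.30 (SE 0.12) in the quadriceps. Without WT mouse 3 these values were -0.72 (SE 0.14) and 0.37 (SE 0.13). Treated mice had 8.44, 7.15 and 9.62 CPM in the gastrocnemius and 5.49, 5.47 and 6.18 CPM in the quadriceps. Their range overlapped that of WT mice in both muscles, and in the gastrocnemius all treated mice lay above all untreated HSA-LR mice. Against WT mice, the treated log2 FC was -0.11 (SE 0.14) in the gastrocnemius and 0.10 (SE 0.12) in the quadriceps.

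Ppp1r1a was lower in both muscles of HSA-LR mice, and more so in the quadriceps. WT mice had 52.6, 57.3 and 78.5 CPM in the gastrocnemius and 51.0, 49.5 and 84.5 CPM in the quadriceps. HSA-LR mice had 45.8, 35.2 and 44.0 CPM in the gastrocnemius and 21.8, 18.5 and 19.0 CPM in the quadriceps. The WT muscles had similar levels, and the HSA-LR quadriceps had less than the gastrocnemius in every mouse. The mean was 1.51-fold lower than in WT mice in the gastrocnemius (1.32-fold without WT mouse 3, the highest WT mouse) and 3.12-fold lower in the quadriceps (2.54-fold without it). The log2 FC was -0.60 (SE 0.20) in the gastrocnemius and -1.64 (SE 0.21) in the quadriceps. Without WT mouse 3 these values were -0.41 (SE 0.19) and -1.34 (SE 0.13). Treated mice had 61.2, 38.2 and 49.9 CPM in the gastrocnemius and 34.3, 27.0 and 35.6 CPM in the quadriceps. In the quadriceps all treated mice lay above all untreated HSA-LR mice and below all WT mice. The log2 FC was 0.71 (SE 0.21) against the former and -0.93 (SE 0.21) against the latter. Without WT mouse 3, the value against WT mice was -0.63 (SE 0.13).

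Serpinb1a was higher in HSA-LR mice, mainly in the quadriceps. WT mice had 3.03, 3.28 and 9.79 CPM in the gastrocnemius and 2.65, 2.65 and 7.20 CPM in the quadriceps, and HSA-LR mice had 6.99, 6.48 and 8.49 CPM in the gastrocnemius and 15.2, 15.5 and 21.0 CPM in the quadriceps. WT mouse 3 was the highest WT mouse in both muscles and overlapped HSA-LR mice in the gastrocnemius, but in the quadriceps all HSA-LR mice lay above all WT mice. The mean was 1.36-fold higher than in WT mice in the gastrocnemius and 4.13-fold higher in the quadriceps, and without WT mouse 3 it was 2.32-fold and 6.50-fold higher. In the gastrocnemius the fitted log2 FC was 0.44 (SE 0.44), and 1.198 (SE 0.30) without this mouse. Treated mice had 4.70, 4.59 and 9.18 CPM in the gastrocnemius and 7.52, 4.89 and 9.12 CPM in the quadriceps. The treated quadriceps lay below all untreated HSA-LR quadriceps, with a log2 FC of -1.26 (SE 0.40). Against WT mice it was 0.79 (SE 0.40), and 1.45 (SE 0.27) without WT mouse 3, so that the mean level was 1.72-fold and 2.71-fold that of WT mice.

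**Figure D1:**
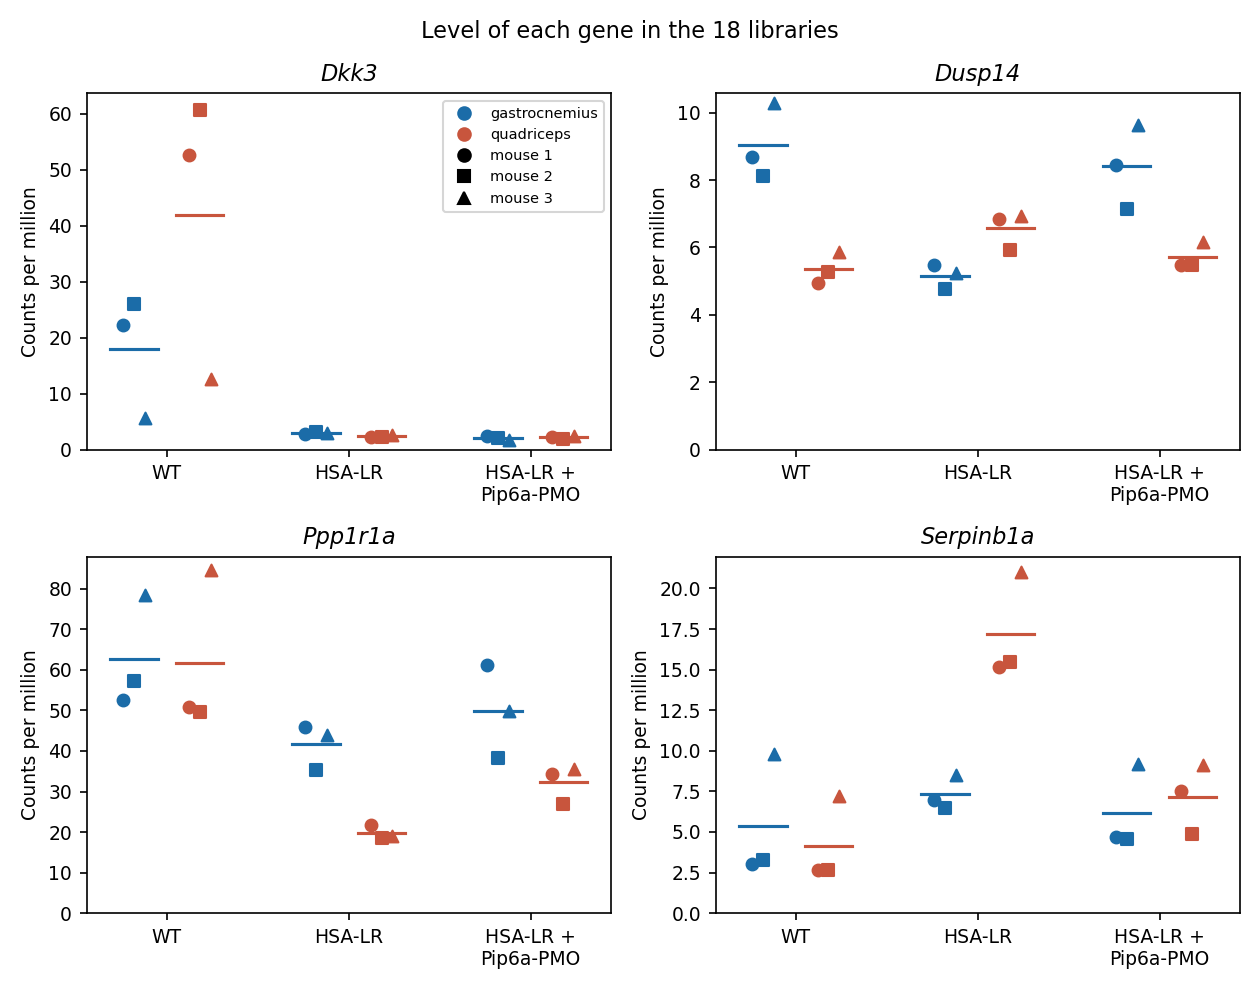
Level in CPM (linear axis from 0) of each gene in the 3 mice of each group. Blue points are gastrocnemius and red points quadriceps, the shape of a point gives the mouse number and the line is the mean of 3 mice. The WT quadriceps of mouse 3 lies at 12.6 CPM for Dkk3, and the HSA-LR quadriceps lies at 15.2 to 21.0 CPM for Serpinb1a.

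In WT mice, the ratio of the muscles within a mouse varied less than the levels for each of the 4 genes. This did not hold for Dkk3 in HSA-LR or treated mice. Nor did it hold against the quadriceps levels for Ppp1r1a in HSA-LR mice and Dusp14 in treated mice. In WT mice 1, 2 and 3 the log2 ratio of gastrocnemius to quadriceps was -1.24, -1.22 and -1.17 for Dkk3, although the highest WT level was 4.66-fold the lowest in the gastrocnemius and 4.81-fold in the quadriceps. In HSA-LR mice it was 0.35, 0.40 and 0.18. For Serpinb1a the ratios were 0.20, 0.31 and 0.44 in WT mice and -1.12, -1.25 and -1.31 in HSA-LR mice. For Dusp14 they were 0.82, 0.62 and 0.81 against -0.33, -0.31 and -0.41. For Ppp1r1a WT mice had 0.05, 0.21 and -0.11 and HSA-LR mice 1.07, 0.93 and 1.21. The sign therefore differed between WT and HSA-LR in every mouse for Dkk3, Dusp14 and Serpinb1a, and Ppp1r1a had no common sign in WT mice. The genes were picked for this difference, and the share of all genes with such opposite signs was not computed.

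The difference between muscles of the HSA-LR change, in a fit of all 18 libraries, was 1.53 (SE 0.69) for Dkk3, -1.10 (SE 0.18) for Dusp14, 1.05 (SE 0.31) for Ppp1r1a and -1.60 (SE 0.65) for Serpinb1a on the log2 scale. Without the mouse as a block, 0 of 16167 genes were called at an adjusted P under 0.1 (edgeR quasi-likelihood, Benjamini-Hochberg adjusted, 0% of genes tested), and 710 had an unadjusted P under 0.05. DESeq2 called 22. With the mouse as a block, the SE of the 4 genes was 0.14, 0.12, 0.13 and 0.18, and 5 genes (0.0309%) were called. Irx5, named here because the count was small, was the other one, with a log2 value of -7.00 (SE 0.81). These 4 genes were picked from this contrast, so the counts say nothing further about them.

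**Figure D2:**
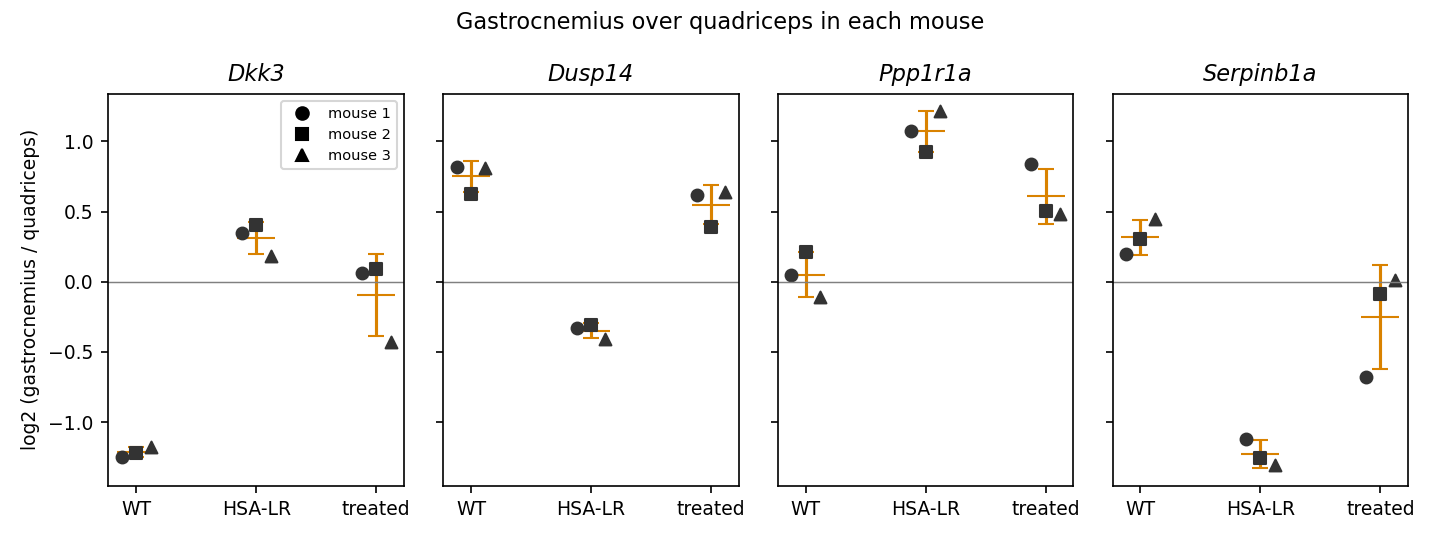
log2 ratio of gastrocnemius to quadriceps CPM in each mouse, for the WT, untreated HSA-LR and treated groups. Points are mice, with the shape giving the number, and the orange bar is the mean with the SD of 3 mice. For Dusp14 the WT and treated mice lie above 0 (0.39 to 0.82) and the HSA-LR mice below it (-0.41 to -0.31).

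The difference between muscles had the same sign in every exon bin used and did not sit in a single bin, a bin being a segment into which overlapping annotated exons are divided. It was positive in 8 of 8 bins of Dkk3 (1.05 to 1.88) and 7 of 7 bins of Ppp1r1a (0.89 to 1.11). It was negative in the 5 bins of Dusp14 with a mean of at least 10 counts (-1.27 to -0.52) of 11 in all, and in 7 such bins of Serpinb1a (-1.91 to -1.37) of 9 in all. A read pair that spans several bins adds to each, so neighbouring bins are not independent.

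**Figure D3:**
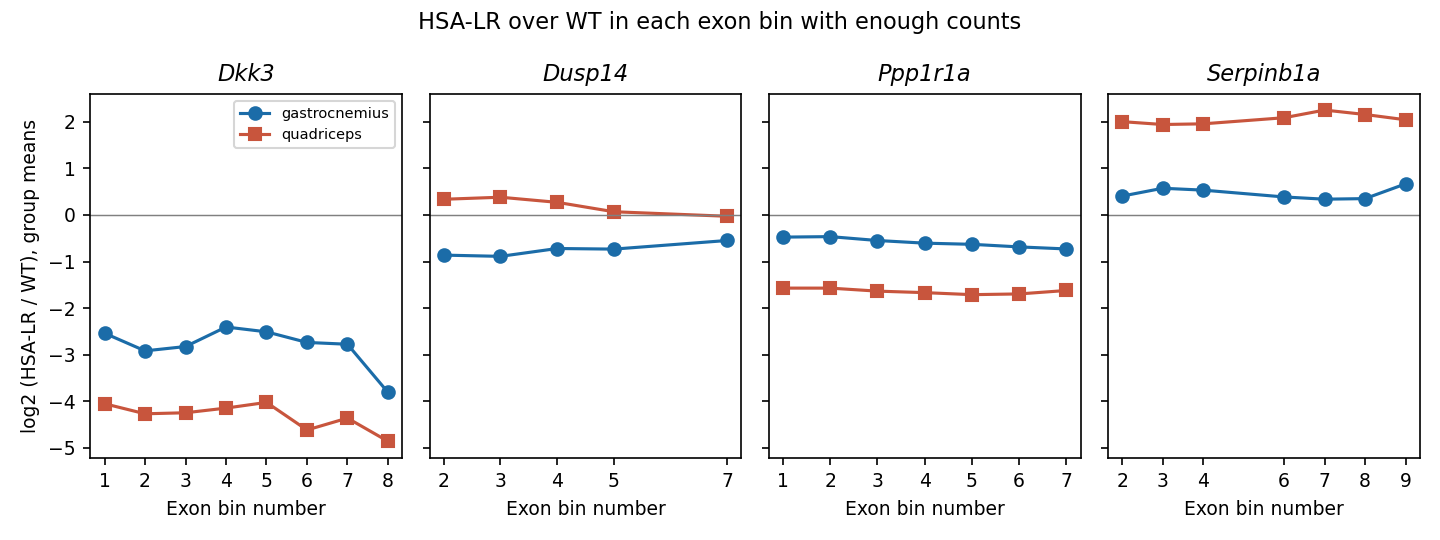
log2 ratio of the HSA-LR to the WT group mean in each exon bin with a mean of at least 10 counts, numbered by genomic position, so that the 3′ end of these minus-strand genes is at the left. Blue is gastrocnemius and red quadriceps. The red line lies below the blue in all bins of Dkk3 and Ppp1r1a and above it in all bins of Dusp14 and Serpinb1a.

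The contrast between the treated muscles did not choose the genes. Its spread in a fit of all 18 libraries was shared with the WT and HSA-LR libraries behind the choice, so the 6 treated libraries were also fitted alone. Between the treated gastrocnemius and quadriceps, 238 of 16167 genes were called (1.47%), 115 higher and 123 lower in the gastrocnemius, and 1501 (9.28%) with the mouse as a block. With the treated libraries alone, 36 of 15059 genes (0.239%) were called, and 216 (1.43%) with the block, a fit that was added after seeing the data. Without treated mouse 3 or treated mouse 1, 8 and 11 genes were called. Dusp14 was higher in the gastrocnemius of 3 of 3 treated mice, with log2 ratios of 0.62, 0.39 and 0.64. The fitted log2 FC was 0.56 (SE 0.12, adjusted P = 0.0738, edgeR quasi-likelihood, Benjamini-Hochberg adjusted) and 0.55 with the block (adjusted P = 0.0156 by the same test). Leaving out WT mouse 2, any HSA-LR mouse, treated mouse 1 or treated mouse 3 from the fit without the block ended this call, with adjusted P values from 0.107 to 0.352 by the same test, and the block without treated mouse 3 gave 0.129. With the treated libraries alone Dusp14 was not called, with adjusted P = 0.291 without and 0.113 with the block by edgeR. Ppp1r1a was also higher in 3 of 3 gastrocnemius libraries, with log2 ratios of 0.84, 0.50 and 0.49. Its log2 FC of 0.62 (SE 0.22) was not called without the block (adjusted P = 0.189 by edgeR; 0.0897 without WT mouse 3) and was called with it (log2 FC 0.61, SE 0.09, adjusted P = 0.0139 by edgeR). With the treated libraries alone it was not called without the block (adjusted P = 0.351 by edgeR) and was called with it (adjusted P = 0.0845). Dkk3 (log2 FC -0.09, SE 0.50, adjusted P = 0.956 by edgeR) and Serpinb1a (-0.22, SE 0.46, adjusted P = 0.861) were not called, nor with the block (adjusted P = 0.659 and 0.272 by edgeR). For Dkk3, treated mice 1 and 2 were near 0 (0.06 and 0.09) and mouse 3 was at -0.43. For Serpinb1a, the ratios were -0.68, -0.09 and 0.01. Dkk3 held 174 to 322 counts in the treated gastrocnemius and 225 to 291 in the treated quadriceps.

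**Figure D4:**
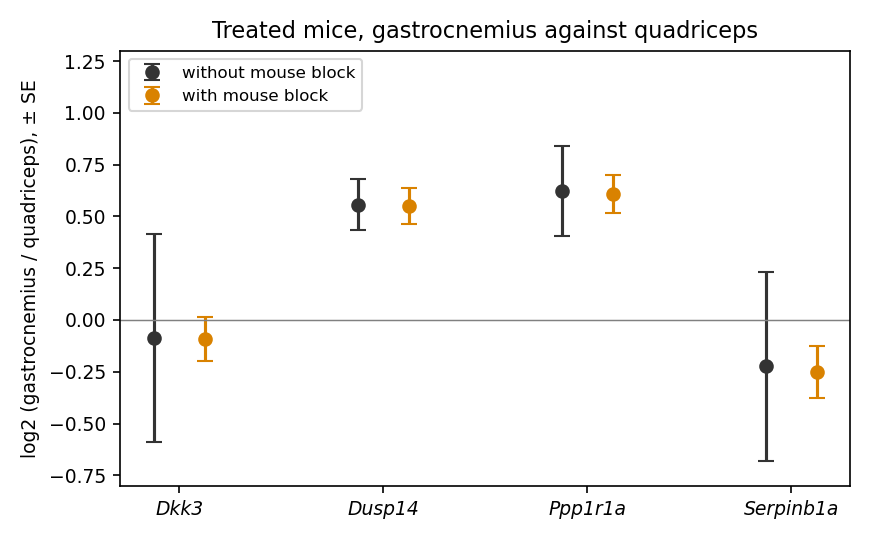
log2 FC of the treated gastrocnemius against the treated quadriceps for each gene, from edgeR fits of the 18 libraries without (black) and with (orange) the mouse as a block. Points are fitted values and bars the SE. Dusp14 (0.56) and Ppp1r1a (0.62) lie above 0, and the bars of Dkk3 reach across it in both fits.

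The fiber makeup of the libraries differed between muscles and mice. The summed level of 11 slow fiber genes was 2266 to 17334 CPM in the gastrocnemius and 142.1 to 2479 CPM in the quadriceps, with the highest value of each muscle in a treated mouse (17334 CPM in mouse 1 and 2479 CPM in mouse 2). Myh1 and Myh2, which mark fast IIX and IIA fibers, summed to 14900 to 22056 CPM in the HSA-LR gastrocnemius against 3174 to 10909 CPM in the WT gastrocnemius, and to 5911 to 14331 CPM against 5338 to 7908 CPM in the quadriceps. Beside Ppp1r1a, 4 marker sums were also lower in the HSA-LR than in the WT quadriceps, without overlap. The 9 skeletal fiber genes summed to 138144 to 157502 against 166281 to 194719 CPM there, and to 176403 to 210892 CPM in the treated quadriceps. In the gastrocnemius the skeletal fiber sums of HSA-LR and WT mice overlapped. The summed level of 7 endothelial genes was 181.6 to 219.5 against 269.1 to 344.1 CPM, that of 6 smooth muscle and pericyte genes 169.6 to 209.2 against 231.5 to 319.6 CPM, and that of 7 Schwann cell and nerve genes 50.7 to 74.4 against 93.3 to 119.7 CPM. In the gastrocnemius the endothelial sums overlapped between HSA-LR and WT mice, as did those of smooth muscle and pericytes, and the Schwann cell and nerve sum was 97.6 to 123.1 against 127.1 to 147.7 CPM. The part of these in the levels of Dusp14 and Ppp1r1a was not tested, and in bulk tissue fewer cells of a type cannot be told apart from less RNA per cell. Of the 10 listed macrophage genes, Itgam was not found by symbol in the counts and is not in the sum. Beside Serpinb1a, this macrophage sum was 100.7 to 133.8 CPM in the HSA-LR quadriceps. It was 54.4 to 78.2 CPM in the WT quadriceps and 51.8 to 77.3 CPM in the treated quadriceps. In the gastrocnemius the macrophage sum was 84.2 to 99.3 CPM in HSA-LR, 70.4 to 97.4 CPM in WT and 58.1 to 92.5 CPM in treated mice. The fibroblast, tendon cell, satellite cell and denervated or regenerating fiber sums were likewise higher in the HSA-LR than in the WT quadriceps without overlap. In the gastrocnemius the fibroblast and tendon cell sums overlapped. The fibroblast sum lacks Pdgfra and Col3a1, which were not found by symbol either. Of 15 marker lists, 5 were higher and 4 lower without overlap in the quadriceps and 4 higher and 3 lower in the gastrocnemius. Their part in Serpinb1a was not tested. The 9 neutrophil genes summed to 0.21 to 2.63 CPM, and Ly6g and Camp were at 0 in 17 of 18 libraries.

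Serpinb1a has close copies on chromosome 13. Serpinb1c (ENSMUSG00000079049.8, chr13:32881434-32898211, minus strand) and Serpinb1b (ENSMUSG00000051029.7, chr13:33078575-33094380, plus strand) encode serpins of the same kind. The first 90 coding bases of each, from the transcripts of GENCODE M21, show how alike they are, with the bases that differ from Serpinb1a in capitals. These are chr13:32850317-32850406 for Serpinb1a, chr13:32897009-32897098 for Serpinb1c and chr13:33085286-33085375 for Serpinb1b, read on the strand of the gene.
Serpinb1a: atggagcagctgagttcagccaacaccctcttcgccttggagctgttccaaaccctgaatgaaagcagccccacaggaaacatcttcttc
Serpinb1c: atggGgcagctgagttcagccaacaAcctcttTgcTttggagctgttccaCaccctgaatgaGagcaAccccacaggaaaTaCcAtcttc
Serpinb1b: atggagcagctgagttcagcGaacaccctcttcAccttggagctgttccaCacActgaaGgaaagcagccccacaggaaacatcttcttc
Of the 2277 different 50-base stretches in the Serpinb1a transcripts, 46 (2.02%) also occurred in Serpinb1c and 44 (1.93%) in Serpinb1b. Sequence within such a stretch does not tell these genes apart. The length and pairing of the reads were not taken into account, and the effect on the sums was not measured. Serpinb1c did not share the pattern of Serpinb1a. It rose in HSA-LR mice from 0.928 ± 0.078 to 4.91 ± 0.76 CPM in the gastrocnemius and from 1.40 ± 0.16 to 7.58 ± 1.05 CPM in the quadriceps (SD, n = 3), a 5.29-fold and a 5.41-fold increase, and the difference between muscles was -0.03 (SE 0.21) on the log2 scale. Serpinb1b was at 0 in all WT libraries and held at most 5 counts in any other.

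The other genes of each pathway, from lists chosen with earlier results of these data known, were tested over all genes (edgeR's quasi-likelihood test, adjusted P under 0.1). Counts within a list include any of the 4 genes that it holds. For such a gene, a call against WT or untreated HSA-LR mice is no test. The background was 15.5% of 15625 genes called in the gastrocnemius (8.6% higher and 6.94% lower) and 20.3% of 15574 in the quadriceps (11% higher and 9.31% lower) for HSA-LR against WT mice. For the difference between muscles, 0 of 16167 genes were called without the mouse as a block. With it 5 were, the 4 genes and Irx5. None of the list genes outside the 4 was thus called, which says nothing about these pathways. The 3 non-member genes of each list with the smallest unadjusted P for this difference are described below by role.

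In the Dickkopf and Wnt list, 38 of 45 genes were tested. In the gastrocnemius 3 were higher and 4 lower in HSA-LR mice, Dkk3 among the latter (median log2 FC -0.26, against -0.01 for all genes), and in the quadriceps 5 were higher and 7 lower (median -0.18, against 0.01). Among the ligands, Wnt4 fell in both muscles (log2 FC -1.33 and -1.43, adjusted P = 0.00775 and 0.00399), as did Wnt9a, and Wnt5b rose in both. Wnt5a, a ligand of noncanonical signaling, rose in the quadriceps (log2 FC 0.80, adjusted P = 0.00309) and had 0.30 in the gastrocnemius (adjusted P = 0.105), and it was lower in the treated gastrocnemius than in the treated quadriceps (log2 FC -0.53, adjusted P = 0.0350). Among secreted inhibitors, Sfrp4 had a log2 FC of -0.56 (adjusted P = 0.289) in the gastrocnemius and rose in the quadriceps (0.99, adjusted P = 0.0271), while Frzb rose in the gastrocnemius (1.25, adjusted P = 0.0142) and had 0.58 (adjusted P = 0.109) in the quadriceps. The difference between muscles was -1.54 (SE 0.42) for Sfrp4, -0.49 (SE 0.14) for Wnt5a and 0.68 (SE 0.35) for Frzb.

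Of 26 dual-specificity phosphatases, 22 were tested in the gastrocnemius and 23 in the quadriceps, and 2 were higher and 2 lower in each (median log2 FC -0.02 and 0.13, against -0.01 and 0.01 for all genes). Dusp5, a nuclear phosphatase of ERK, rose in both muscles (1.09 and 1.33), Dusp27 rose in both (0.60 and 0.53), and Styx, a catalytically inactive member, fell in both (-0.49 and -0.73). Dusp14 was among the 4 in the gastrocnemius and not among those in the quadriceps. Dusp15 fell in the quadriceps (-1.57, adjusted P = 0.0200) and had -0.30 in the gastrocnemius. Dusp26 was lower in the treated gastrocnemius than in the treated quadriceps (-1.12, adjusted P = 0.0777), in the direction opposite to Dusp14, and Dusp1 had a difference between muscles of -1.17 (SE 0.70). The list of MAP kinases and TAK1 complex holds substrates of such phosphatases, and also the kinases that act on MAP kinases. Of its genes, 1 of 23 tested was higher and 3 lower in the gastrocnemius (median -0.05). In the quadriceps 1 was higher and 3 lower of 24 (median -0.11). Tab2, an adaptor of TAK1, fell in both (-0.47 and -0.47), as did Nlk and Mapk9, and Map2k6 rose in the gastrocnemius (0.76, adjusted P = 0.00763) and had 0.43 in the quadriceps. Map3k7, which encodes TAK1 itself, was lower in the treated gastrocnemius than in the treated quadriceps (-0.44, adjusted P = 0.0984). With the treated libraries alone, without the block, this contrast called 36 of 15059 genes. Whether Wnt5a, Dusp26 or Map3k7 was among these is not given here. The difference between muscles was -1.68 (SE 0.73) for Mapk10, -0.39 (SE 0.20) for Map2k3 and 0.34 (SE 0.25) for Map2k6.

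For protein phosphatase 1 and its regulatory subunits, 2 of 33 genes were higher and 3 lower in the gastrocnemius and 1 higher and 4 lower of 32 in the quadriceps, Ppp1r1a among the lower genes of each (median -0.08 and -0.01). Ppp1r9a, which encodes the scaffold neurabin, rose in both (1.12 and 0.92), and Ppp1r12c, a myosin phosphatase subunit, fell in both (-0.32 and -0.39). The glycogen-targeting subunit Ppp1r3b fell in the gastrocnemius (-0.81) and Ppp1r3c in the quadriceps (-0.996). Without WT mouse 3, Ppp1r1a and Ppp1r3b were no longer called in the gastrocnemius, where 2 genes were higher and 2 lower. In the quadriceps 0 were then higher and 2 lower, Ppp1r1a and Ppp1r12c, and Ppp1r9a, Ppp1r3c and Ppp1r14a were no longer called. The difference between muscles was -0.82 (SE 0.48) for Ppp1r3e, 0.67 (SE 0.40) for Ppp1r16b and 0.49 (SE 0.33) for Ppp1r12b. Among protein kinase A and glycogen enzymes, 2 of 18 genes were higher in the gastrocnemius and none lower, and 3 were higher and 1 lower in the quadriceps (median -0.05 and -0.03). Gys1, muscle glycogen synthase, rose in both (0.39 and 0.48), as did Pkig, an inhibitor of protein kinase A (0.38 and 0.52, not called in the gastrocnemius without WT mouse 3), and Pygm, muscle glycogen phosphorylase, fell in the quadriceps (-0.43). Pkib, another inhibitor of protein kinase A, was called in the quadriceps at levels of 0.00293 CPM in WT mice and 0.0972 CPM in HSA-LR mice, and its difference between muscles was -3.76 (SE 1.58). For Gbe1, the glycogen branching enzyme, it was 0.27 (SE 0.30).

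Of 27 clade B serpins, 8 were tested. In the quadriceps of HSA-LR mice 5 were higher and none lower, with a median log2 FC of 1.53 against 0.01 for all genes, and in the gastrocnemius 1 was higher, Serpinb1c, with a median of 0.47. The 5 were Serpinb1a, Serpinb1c, Serpinb6a (1.29, adjusted P = 0.00987), Serpinb6b (1.77, adjusted P = 0.0142) and Serpinb8 (1.95, adjusted P = 0.0122). In the gastrocnemius Serpinb6a, Serpinb6b and Serpinb8 had log2 FC values of 0.67, 0.50 and 0.63 (adjusted P = 0.189, 0.378 and 0.533), and their differences between muscles were -0.60 (SE 0.41), -1.25 (SE 0.51) and -1.30 (SE 0.74). Serpinb1a was picked for this difference. Over the 7 other genes the median was 1.29 in the quadriceps, 0.50 in the gastrocnemius and -0.60 for the difference between muscles, the last against 0.01 for all genes. Without WT mouse 3, the gastrocnemius had 3 higher genes in place of 1, which were Serpinb1a, Serpinb1c and Serpinb8. In treated against untreated HSA-LR quadriceps, 3 of the 8 were lower, Serpinb1a among them, against 13.8% of all genes called and 7.22% lower. The serine proteases and caspases that Serpinb1 is known to act on or near had 6 of 10 genes tested, and 1 of them was called for HSA-LR against WT, Casp4, lower in the HSA-LR gastrocnemius (-0.74, adjusted P = 0.0752). The difference between muscles was -0.97 (SE 0.33) for Casp4, -0.46 (SE 0.43) for Casp1 and -1.24 (SE 1.31) for Prtn3.

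Compared per kilobase of exon, the order of the 4 genes changed with group and muscle. A read pair adds to each bin it spans, so the sums also depend on how a gene is divided into bins. Division by exon length does not remove this, so the levels of different genes compare only roughly. In the WT gastrocnemius the mean level was 48.1 CPM per kb for Ppp1r1a, 5.35 for Dkk3, 4.65 for Dusp14 and 2.33 for Serpinb1a, with Dkk3 (SD 3.24) and Dusp14 (SD 0.58) within the spread of each other. In the HSA-LR quadriceps Ppp1r1a had 15.1, Serpinb1a 7.47, Dusp14 3.38 and Dkk3 0.705 CPM per kb. In the WT quadriceps the mean was 1.81 CPM per kb for Serpinb1a (SD 1.14) and 2.76 for Dusp14 (SD 0.24), within the spread of each other, as Serpinb1a had the higher level in WT mouse 3. Dkk3, at 12.5 CPM per kb there (SD 7.67), was the lowest of the 4 in the HSA-LR quadriceps.

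The genes most like each of the 4 over the 18 libraries were taken as the 3 with the highest Pearson r of log2 CPM among 16166 other genes. As the 18 libraries fall into 6 groups, r can follow the group means. How much of r came from these means, or from a single mouse such as WT mouse 3, was not computed. Acvr2a, an activin receptor (r = 0.96), Themis3 (0.92) and Sytl2 (0.91) were nearest to Dkk3. Acvr2a fell from 31.6 to 13.4 CPM in the gastrocnemius and from 39.6 to 12.9 CPM in the quadriceps of HSA-LR mice. Nearest to Dusp14 were Myl6b, a myosin light chain (r = 0.82), Gm38157 (0.82) and Ccdc92 (0.80). Myl6b had 17.0 CPM in the WT, 7.72 in the HSA-LR and 17.5 in the treated gastrocnemius, against 5.86, 6.06 and 7.51 CPM in the quadriceps. Nearest to Ppp1r1a were Itgb4 (0.92), Acvrl1 (0.91) and Rasgrf1 (0.90), and nearest to Serpinb1a were Xbp1, a transcription factor of the unfolded protein response (0.88), Lrp2bp (0.88) and Tram2 (0.88). Lrp2bp had 12.2 and 23.8 CPM in the WT and HSA-LR gastrocnemius and 14.7 and 47.7 CPM in the quadriceps. With Spearman's rho in place of Pearson's r, 0 of 3 nearest genes were shared for Dkk3, Dusp14 and Serpinb1a and 2 of 3 for Ppp1r1a.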

How the data were processed

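Each library was deposited by the authors as unnormalized counts for every exon bin, laid out as DEXSeq expects, and replicates were not pooled. The submitters' processing notes name CASAVA, HISAT, featureCounts 1.5.0 and GRCm38. The labels give a stranded kit with polyA selection. Entries naming no gene (2.82% to 4.14% of a library) were left out. Because 1 read pair can add to several bins, a summed gene count exceeds its number of pairs, and each gene's largest bin was tried as an alternative. The 391858 bins belong to 46725 genes, of which 46520 had a symbol in GENCODE M21.

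Gene sums were filtered by filterByExpr (10 counts, total of 15), scaled with TMM factors, and compared by edgeR's quasi-likelihood test, on 18 libraries for differences between muscles and on the 9 libraries of a muscle otherwise, with Benjamini-Hochberg adjustment over all genes. A gene was called at an adjusted P under 0.1. Tools were R 4.3.3, edgeR 4.0.16, DESeq2 1.42.0, the data.table package (version 1.17.8), pandas 2.3.3 and matplotlib 3.10.9. On simulated counts for treated gastrocnemius against quadriceps (15916 genes), the test without a block recovered 83% of 4-fold and 61% of 2-fold changes, with 9.43% of its calls false. With the mouse as a block these values were 82%, 57% and 8.55%. The simulated counts held no mouse effect, so they cannot show how either fit behaves on paired muscles.

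The 4 genes, the pathway and marker lists and the rule for named genes were chosen with earlier results of these data known. The rule names the 4 genes, the 3 other genes of each pathway list with the smallest unadjusted P for the difference between muscles, the 3 nearest genes of each member, the paralogs Serpinb1b and Serpinb1c, and the Y-linked genes. Other list genes, and Irx5, were named after their values were seen. The study took both muscles from the same treated mice without stating which numbers belong together, and for the other groups the pairing rests on the replicate number. Over genes, deviations from the group means correlated with a median r of 0.21 (0.064 to 0.51, 9 pairs) for the same number and -0.090 (-0.38 to 0.22, 18 pairs) for different numbers. The deviations of the 3 libraries of a group and muscle sum to 0. Positive values for the same number therefore push those for different numbers below 0, and the latter are no separate evidence of pairing. Each gastrocnemius library of the WT and HSA-LR groups correlated best with the quadriceps library of its own number, as did 2 of 3 in the treated group. The mouse block was an alternative, as were other normalization, filters, libraries and DESeq2.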

Additional observations from a re-analysis of the deposited data

Results flagged for a closer look

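For 3 of the 4 genes, every WT mouse and every HSA-LR mouse had gastrocnemius over quadriceps ratios of opposite sign. The mean log2 ratio of HSA-LR mice minus that of WT mice was 1.52 for Dkk3, -1.10 for Dusp14 and -1.54 for Serpinb1a. For Dusp14, treated mice also had the sign opposite to untreated HSA-LR mice, with a difference of 0.90 between the means. These differences were not tested here, because the genes were picked for them, and the last shares its HSA-LR mice with that choice. The share of all genes with such opposite signs was not computed, so the count of 3 of 4 follows the choice and shows nothing more.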

How the results depend on the processing

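The count of genes called between the treated muscles (238) depended on the processing: 1501 with the replicate block (mouse), 820 by DESeq2, 150 with upper-quartile normalization, 125 with every gene of at least 1 count, 123 with the largest bin of each gene and 36 with the treated libraries alone (216 with the block). It was 8 to 335 when a mouse was left out. Together with the replicate block, a choice added after seeing the data, leaving out WT mouse 1, 2 or 3 gave 1537, 1286 and 966, HSA-LR mouse 1, 2 or 3 gave 1120, 1122 and 1261, and treated mouse 1, 2 or 3 gave 852, 1182 and 65. For the difference between muscles of the HSA-LR change (0 genes), the replicate block gave 5 (7 with the WT and HSA-LR libraries alone), DESeq2 22 and the largest bin 1, and leaving out a mouse 0 to 3. With the block, leaving out WT mouse 2 or 3 gave 12 and 11, HSA-LR mouse 3 gave 1, treated mouse 1, 2 or 3 gave 6, 6 and 41, and WT mouse 1 or HSA-LR mouse 1 or 2 gave 0. HSA-LR against WT counts were 1357 to 3538 in the gastrocnemius (2427 with all mice) and 2050 to 3373 in the quadriceps (3169) when a mouse was left out.

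Between the treated muscles, the log2 FC of Dkk3 (-0.09) changed sign to 0.017 with the largest bin and to 0.069 without treated mouse 3, with or without the block, and was -0.18 to 0.069 over the left-out mice. That of Dusp14 (0.56) was 0.55 with the treated libraries alone (adjusted P = 0.291, edgeR; with the block 0.546 and adjusted P = 0.113), where the call was lost, 0.50 with the block without treated mouse 3, and 0.51 to 0.63 over the left-out mice. Ppp1r1a (0.62) was called with the replicate block (0.61), also with the treated libraries alone (0.605), without WT mouse 1, 2 or 3 (0.61, 0.61, 0.61), HSA-LR mouse 1, 2 or 3 (0.61, 0.61, 0.61) and treated mouse 1, 2 or 3 (0.49, 0.66, 0.67), and was 0.49 to 0.70 over the mice left out without it. For the difference between muscles of the HSA-LR change, the Dusp14 value was -1.24 with the largest bin, against -1.10, and the Serpinb1a value -1.48 with the block without WT mouse 3, against -1.60, with -1.66 to -1.49 over the left-out mice. None of the 4 values for this difference changed sign under any alternative run. For the called or named genes of the pathway lists outside the 4, 1392 alternative runs gave the same result and 329 lost a call. Within a muscle the replicate number joins different animals, and the block gave 1805 and 2857 genes for HSA-LR against WT. The cause of these changes was not tested. Dkk3 held 174 to 322 counts in the treated gastrocnemius, and the smallest difference detectable at that level was not computed.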
